A study of Mus musculus with 28 samples.

Results

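The genes described here are 9 genes of the acrosome and of sperm-egg fusion: *Spaca1*, *Dpy19l2*, *Zpbp*, *Zpbp2*, *Acr*, *Acrbp*, *Acrv1*, *Spam1* and *Izumo1*. They were chosen by name, and all 9 were found among the 37122 genes of the table. RNA was sequenced from 27 libraries of mouse testis and 1 library of ovary. Of the testis libraries, 7 came from whole testis (2 wildtype, WT, and 5 *Csmd1* knockout, KO) and 20 from germ cells sorted by Hoechst dye for DNA content, chromatin state and dye efflux. These were spermatogonia (2 WT, 2 KO), primary spermatocytes (2 WT, 4 KO), secondary spermatocytes (2 WT, 3 KO) and spermatids (3 WT, 2 KO). The 12 male mice carry the numbers of the labels, and several libraries came from the same mouse, so that a mouse and not a library is the biological replicate. All mice are labelled C57BL/6, and the study's methods describe the knockout colony as a mix of 129SvEvBrd and C57BL/6. In the KO allele a lacZ and neomycin cassette replaces exon 1 and part of intron 1 of *Csmd1*, a gene for a large membrane protein that restrains complement. The cassette is present in every cell of the mouse, so that a difference between genotypes could arise in germ cells or in the somatic cells around them. The study's methods describe the males whose germ cells were sorted as sexually mature, in general and without naming mice. The sorted libraries here came from mice 178, 286, 351, 544, 550, 613, 614 and 648, and their labels give no age. The study also examined sexually immature whole testes, and an age for mice 214, 269, 273 and 308, which have only a whole testis library here, is not given in the sources used here.

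The acrosome is a vesicle derived from the Golgi that flattens over the nucleus of the round spermatid and releases its contents when the sperm meets the egg coat. *Spaca1* encodes a protein of the acrosomal membrane needed to shape the vesicle, and *Dpy19l2* encodes a protein of the inner nuclear membrane that anchors the acrosome to the nucleus. Loss of either gives round-headed sperm. *Zpbp* and *Zpbp2* encode proteins of the acrosomal matrix that bind the zona pellucida, the coat of the egg. *Acr* encodes proacrosin, the main protease of the acrosome, and *Acrbp* the protein that binds proacrosin and holds it inactive. *Acrv1* encodes the matrix protein SP-10. *Spam1* encodes PH-20, a hyaluronidase of the sperm surface, and *Izumo1* the sperm protein that binds Juno on the egg and is required for fusion. In round spermatids many genes are switched on by the activator CREM, which binds the cAMP response element.

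On the GRCm38 assembly, *Spaca1* (ENSMUSG00000028264) lies on chromosome 4 at 34024874 to 34050191 on the minus strand, and *Izumo1* (ENSMUSG00000064158) on chromosome 7 at 45621811 to 45628823 on the plus strand. *Acrv1* (ENSMUSG00000032110) lies on chromosome 9 at 36693220 to 36698843 on the plus strand, and *Dpy19l2* (ENSMUSG00000085576) on the same chromosome at 24557047 to 24696293 on the minus strand. *Spam1* (ENSMUSG00000029682) and *Acrbp* (ENSMUSG00000072770) lie on chromosome 6, both on the plus strand, at 24791188 to 24801048 and at 125049689 to 125063267. *Zpbp* (ENSMUSG00000020193) and *Zpbp2* (ENSMUSG00000017195) lie on chromosome 11, at 11279626 to 11462408 on the minus strand and at 98551097 to 98558665 on the plus strand. *Acr* (ENSMUSG00000022622) lies on chromosome 15 at 89568326 to 89574585 on the plus strand. The 9 genes are therefore spread over 6 chromosomes. Exons of other annotated genes cover 975 of the 3277 exon bases of *Acrbp* (*Gm44597*, same strand), 654 of 2992 of *Izumo1* (*Rasip1*, same strand) and 223 of 4248 of *Zpbp* (*Spata48*, opposite strand). Whether the counting used strand is not given in the sources used here, so reads from these stretches cannot be assigned to either gene, and the levels of *Acrbp*, *Izumo1* and *Zpbp* are uncertain to that extent. Over the testis libraries *Rasip1* stood at 0.050 to 2.31 RPKM, *Spata48* at 1.95 to 135 RPKM and *Gm44597* at 3.77 to 187 RPKM.

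The promoters of the 4 genes whose levels moved most closely together across libraries (*Acrv1*, *Spaca1*, *Spam1* and *Izumo1*) are shown for what they share and do not share. Each is the 250 bases before the transcription start, written toward the gene, from the RefSeq windows on GRCm38.p6. Capitals mark the letters TGACG on either strand, one arm of the cAMP response element, or GTTGCC on either strand, one arm of the X-box that RFX factors bind.
Spaca1, chr4:34050066-34050315, minus strand: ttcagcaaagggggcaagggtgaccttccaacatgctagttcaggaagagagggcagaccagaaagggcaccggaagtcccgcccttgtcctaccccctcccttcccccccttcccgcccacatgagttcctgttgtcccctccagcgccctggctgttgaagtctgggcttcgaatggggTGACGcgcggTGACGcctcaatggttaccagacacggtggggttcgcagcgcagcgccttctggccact
Izumo1, chr7:45621561-45621810, plus strand: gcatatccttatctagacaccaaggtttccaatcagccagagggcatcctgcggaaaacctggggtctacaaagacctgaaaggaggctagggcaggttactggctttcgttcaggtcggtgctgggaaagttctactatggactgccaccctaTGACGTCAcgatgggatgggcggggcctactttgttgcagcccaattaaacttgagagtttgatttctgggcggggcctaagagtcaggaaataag
Acrv1, chr9:36692970-36693219, plus strand: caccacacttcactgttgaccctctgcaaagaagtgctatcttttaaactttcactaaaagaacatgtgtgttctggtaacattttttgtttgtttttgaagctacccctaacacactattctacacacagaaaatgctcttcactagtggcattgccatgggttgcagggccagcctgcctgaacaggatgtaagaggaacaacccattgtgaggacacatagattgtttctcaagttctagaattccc
Spam1, chr6:24790938-24791187, plus strand: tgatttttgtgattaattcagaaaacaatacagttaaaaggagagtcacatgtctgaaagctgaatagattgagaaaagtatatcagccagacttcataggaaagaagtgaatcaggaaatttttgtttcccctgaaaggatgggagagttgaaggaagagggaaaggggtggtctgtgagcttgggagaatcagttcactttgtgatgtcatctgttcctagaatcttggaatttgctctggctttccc
In the *Izumo1* window the capitals run over both strands at once, giving a complete palindromic TGACGTCA that begins 96 bases before the start. *Spaca1* held TGACG at 2 places, beginning 69 and 59 bases before the start. Neither motif was found in the windows of *Acrv1* and *Spam1*. RefSeq windows running from 250 bases before the start to 50 after it were at hand for 8 of the 9 genes, and *Acr* had none. TGACG was present in 5 of the 8, the others being *Acrbp*, *Zpbp2* and, 11 bases after the start, *Dpy19l2*, and GTTGCC in 1 of the 8, *Acrbp*. Of all 32851 windows, 20.8% held TGACG and 12.5% held GTTGCC.

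Levels are reads scaled to transcript length and to the mapped reads of the library (RPKM), summed over the transcripts of a gene. Depth was read from the step that 1 read makes in the table and ran from 23800501 to 61639731 reads in the 26 testis libraries where it could be read, so that a count of 0 allows up to 3 reads. The library of primary spermatocytes of mouse 613 had no such step and its depth is unknown. In that library alone, reads appeared to be shared out among overlapping transcripts, while elsewhere a read was counted for each transcript it overlapped. The sums of *Acrbp* (7 transcripts), *Zpbp2* (6) and *Spaca1* (3) are therefore inflated and not comparable between genes or with mouse 613, and levels are compared between genes only on 1 full-length coding transcript each. The *Csmd1* sum did not separate the genotypes (0.06 to 1.25 RPKM in the 2 WT whole testes, 0.18 to 2.10 RPKM in the 5 KO ones). Since it also counts exons outside the deleted part, it does not check the labels.

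One library went most clearly against its label. The library labelled spermatogonia of KO mouse 544 held *Prm1*, the protamine of late spermatids, at 1402 RPKM, against 0.09 to 92.9 RPKM in the other 3 libraries of spermatogonia. Its summed level of 8 late spermatid markers, *Prm1* among them, was 15005 RPKM (11.98 to 676 RPKM in the other 3). Its summed level of 7 spermatogonial markers was 308 RPKM (716 to 950 RPKM in the other 3). Across genes it correlated best with the secondary spermatocytes of the same mouse (Pearson's r = 0.95). All 9 genes stood there near their spermatid level, *Acrv1* at 149 RPKM and *Izumo1* at 86.1 RPKM, and each stage comparison is therefore given with and without it. The other 3 libraries of spermatogonia also held markers of other cells. The summed 8 primary spermatocyte markers stood at 1976 RPKM in mouse 178 (758 RPKM in its primary spermatocytes), 1288 RPKM in mouse 286 and 672 RPKM in mouse 648. Mouse 648 also held 778 RPKM of 6 peritubular and stromal markers and 375 RPKM of 6 Leydig cell markers. The part of this in the step out of spermatogonia was not tested.

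The 9 genes followed 2 courses through spermatogenesis. For *Acr*, *Acrbp*, *Zpbp*, *Zpbp2* and *Dpy19l2*, called the early genes here, the levels in primary spermatocytes overlapped with those in spermatids. *Acrv1*, *Spaca1*, *Spam1* and *Izumo1*, called the late genes, were low in primary spermatocytes, and their medians were higher by an order of magnitude or more in spermatids, without overlap. On the full-length transcript, the median over spermatid libraries ran from *Acrbp* at the top (311 RPKM) through *Acr* (134 RPKM), *Acrv1* (91.0 RPKM), *Zpbp2* (89.4 RPKM), *Dpy19l2* (66.2 RPKM), *Spaca1* (62.3 RPKM), *Izumo1* (49.96 RPKM) and *Zpbp* (26.2 RPKM) to *Spam1* (19.6 RPKM). Of the neighbours in this order, *Acrbp* (181 to 354 RPKM) and *Acr* (94.6 to 176 RPKM) alone did not overlap over the 5 libraries, and *Zpbp2* (71.8 to 410 RPKM) overlapped with both, so little of the order can be read. In primary spermatocytes the same scale gave medians of 209 RPKM for *Acrbp*, 120 RPKM for *Acr* and 97.5 RPKM for *Zpbp2*, but 4.42 RPKM for *Acrv1*, 4.14 RPKM for *Spaca1*, 2.60 RPKM for *Izumo1* and 1.35 RPKM for *Spam1*.

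**Figure D1:**
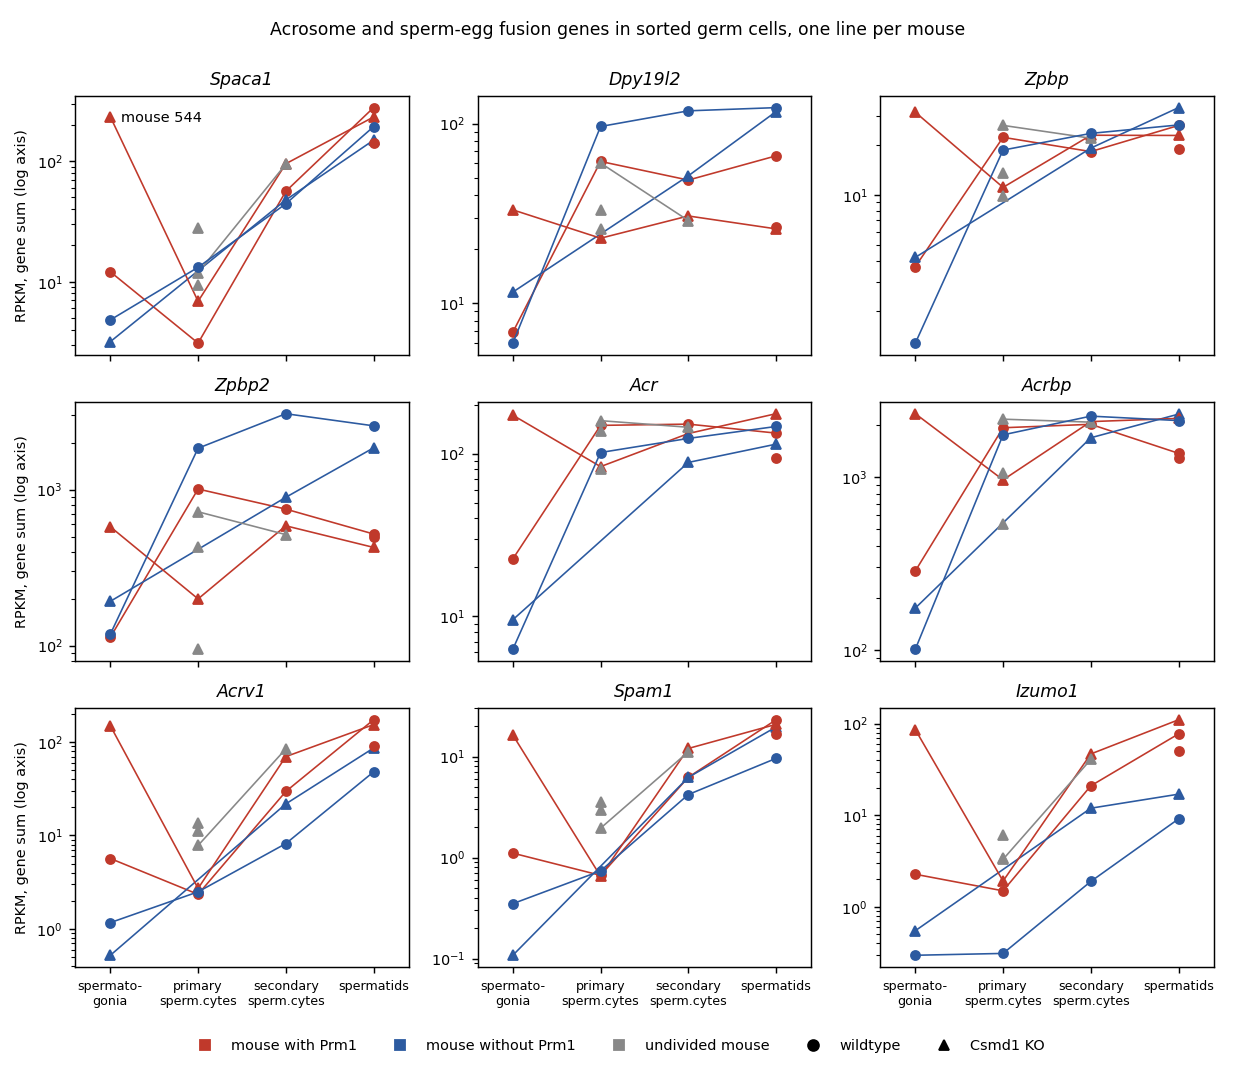
RPKM per gene (sum over transcripts, log axis) against sorted stage for the 9 genes, with 1 point per library, a line joining the stages of 1 mouse, colour for whether the mouse had Prm1 and shape for genotype. The line of mouse 286 skips primary spermatocytes, for which it has no library, and the point of mouse 544 at the left of each panel is the library labelled spermatogonia that held late spermatid RNA. Acr lies between 80.6 and 159 RPKM in primary spermatocytes and between 94.6 and 176 RPKM in spermatids, whereas Izumo1 lies between 0.31 and 6.07 RPKM in primary spermatocytes and between 9.11 and 110 RPKM in spermatids.

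*Spaca1*, the membrane protein of the forming acrosome, stood in primary spermatocytes at 3.09 RPKM in WT mouse 178, 13.2 RPKM in WT mouse 648 and 6.87, 11.9, 9.39 and 28.1 RPKM in KO mice 544, 550, 613 and 614. In secondary spermatocytes it stood at 56.3 and 44.3 RPKM in WT mice 178 and 648 and at 47.7, 95.3 and 94.5 RPKM in KO mice 286, 544 and 550. Spermatids held 279, 142 and 193 RPKM in WT mice 178, 351 and 648 and 149 and 233 RPKM in KO mice 286 and 544. The ranges of these 3 stages did not overlap. Within a mouse, the secondary spermatocytes held between 3.37 times (mouse 648) and 18.2 times (mouse 178) the level of the primary spermatocytes. 

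*Izumo1*, the fusion protein, had the same order of stages and differed widely between mice. Primary spermatocytes held 1.49 and 0.31 RPKM in WT mice 178 and 648 and 1.91, 3.30, 3.42 and 6.07 RPKM in KO mice 544, 550, 613 and 614. Secondary spermatocytes held 20.9 and 1.89 RPKM in the same WT mice and 11.9, 46.7 and 40.7 RPKM in KO mice 286, 544 and 550. Mouse 648 was the lowest in each sorted stage, and its secondary spermatocytes held no more than the primary spermatocytes of several other mice. In spermatids *Izumo1* stood at 77.3, 49.96 and 9.11 RPKM in WT mice 178, 351 and 648 and at 17.0 and 110 RPKM in KO mice 286 and 544. Within a mouse the secondary spermatocytes were higher than the primary spermatocytes by 6.11-fold in mouse 648, 12.3-fold in mouse 550, 14.0-fold in mouse 178 and 24.5-fold in mouse 544.

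*Acrv1* (SP-10) followed the same course, with 2.35 to 13.7 RPKM over the 6 libraries of primary spermatocytes, 8.19 to 84.4 RPKM over the 5 of secondary spermatocytes and 47.9 to 173 RPKM over the 5 of spermatids. *Spam1* (PH-20) had the lowest median of the 4 at each of these stages, at 0.65 to 3.51 RPKM in primary spermatocytes, 4.20 to 12.02 RPKM in secondary spermatocytes and 9.59 to 23.1 RPKM in spermatids. Within mice, *Acrv1*, *Spaca1*, *Spam1* and *Izumo1* were each higher in secondary than in primary spermatocytes in 4 of 4 mice with both, and higher in spermatids than in secondary spermatocytes in 4 of 4. The summed 8 late spermatid markers were also higher in secondary than in primary spermatocytes. They stood at 1513 against 201 RPKM in mouse 178 and at 3473 against 344 RPKM in mouse 544. Mouse 550 held 3602 against 463 RPKM, and mouse 648 held 255 against 52.8 RPKM. The part of spermatid RNA in the secondary spermatocyte levels was not tested.

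With limma over all 20 sorted libraries, none of the 9 genes passed an adjusted p of 0.05 between primary and secondary spermatocytes, where 2.81% of 22715 genes were called higher and 0.15% lower. The 4 late genes had log2 differences of 2.79 (SE 0.82, limma adjusted p = 0.0694) for *Spaca1*, 2.46 (SE 0.83, limma adjusted p = 0.102) for *Spam1*, 3.01 (SE 1.10, limma adjusted p = 0.129) for *Izumo1* and 2.68 (SE 1.04, limma adjusted p = 0.149) for *Acrv1*. The same 4 had an unadjusted p below 0.05, and the median over all genes was 0.28. With the mouse as a block, all 4 were called higher (limma adjusted p = 0.0108 for *Spaca1*, 0.0109 for *Izumo1*, 0.018 for *Spam1* and 0.0246 for *Acrv1*), against 14.5% of all genes called higher and 3.66% lower in that fit. Without the library labelled spermatogonia of mouse 544, which enters this comparison only through the shared estimate of the spread, they were again called (limma adjusted p = 0.00399, 0.0347, 0.00682 and 0.0131 in that order), against 6.99% of 22699 genes called higher and 0.445% lower. The remaining 5 genes differed by between 0.04 for *Dpy19l2* and 0.69 for *Zpbp2* on the log2 scale, and none of these was called in any of the 3 fits.

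Between secondary spermatocytes and spermatids none of the 9 genes was called in any of the 3 fits. The log2 differences were 1.86 (SE 1.06) for *Acrv1*, 1.64 (SE 0.84) for *Spaca1*, 1.48 (SE 1.13) for *Izumo1* and 1.34 (SE 0.85) for *Spam1*, with limma adjusted p of 0.353 to 0.542. The other 5 lay between -0.17 for *Zpbp2* and 0.28 for *Zpbp*. In this comparison 0% of all genes were called higher and 0.128% lower, and none of the 9 had an unadjusted p below 0.05. With the mouse as a block, 0.335% were called higher and 7.18% lower, and without the library labelled spermatogonia of mouse 544, 0% and 0.159%.

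The step out of spermatogonia was the one in which early genes were called. *Acr* (proacrosin) stood at 22.5 and 6.28 RPKM in spermatogonia of WT mice 178 and 648 and at 9.53 RPKM in KO mouse 286, with 172 RPKM in the library of mouse 544. In primary spermatocytes it stood at 149 and 102 RPKM in WT mice 178 and 648 and at 83.2, 159, 138 and 80.6 RPKM in KO mice 544, 550, 613 and 614. Apart from mouse 544, no library of spermatogonia reached the lowest of the primary spermatocytes. *Acrbp*, whose protein partners proacrosin, stood at 286, 101 and 175 RPKM in spermatogonia of mice 178, 648 and 286, and at 959 to 2147 RPKM in the 5 libraries of primary spermatocytes other than that of mouse 613. *Dpy19l2* stood at 6.89, 5.99 and 11.5 RPKM in the same 3 mice and at 23.0 to 96.5 RPKM in primary spermatocytes.

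With all 20 libraries, 4 of the 9 genes were called higher in primary spermatocytes than in spermatogonia, beside 7.54% of 22715 genes called higher and 19.1% called lower. The log2 differences were 2.40 (SE 0.62, limma adjusted p = 0.00921) for *Acr*, 2.16 (SE 0.54, limma adjusted p = 0.00787) for *Dpy19l2*, 2.06 (SE 0.61, limma adjusted p = 0.0189) for *Acrbp* and 1.72 (SE 0.50, limma adjusted p = 0.0182) for *Zpbp*. *Zpbp2* differed by 1.64 (SE 0.69, limma adjusted p = 0.089), and the median over all genes was -0.31. With the mouse as a block *Zpbp2* was called as well (limma adjusted p = 0.0334), beside 11.6% of genes called higher and 24.1% lower. Without the library labelled spermatogonia of mouse 544 the differences of *Acr*, *Acrbp* and *Zpbp* grew to 3.44, 2.996 and 2.44, *Zpbp2* was not called (2.04, SE 0.76, limma adjusted p = 0.0541), and the late gene *Spam1* was also called, at 1.71 (SE 0.56, limma adjusted p = 0.0315), beside 11% of genes called higher and 18.9% lower. The differences of *Acrv1*, *Spaca1* and *Izumo1* turned from -0.22, -0.71 and -0.68 with that library to 1.76, 0.82 and 1.08 without it, uncalled in either case. Within mouse 648 all 9 genes were higher in primary spermatocytes than in spermatogonia, and within mouse 178 the 5 early genes were higher and the 4 late ones lower. None of the 9 genes was called without mouse 178 or without mouse 648, the only WT mice with spermatogonia. Without mouse 286, which leaves the library of mouse 544 as the only one of KO spermatogonia, *Dpy19l2* differed by 1.78, *Acrv1* by -2.19 and *Spaca1* by -2.25. In the libraries of mice 544 and 550 alone the 4 late genes differed by -3.72 to -5.04, the only spermatogonia of that set being the library of mouse 544.

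**Figure D2:**
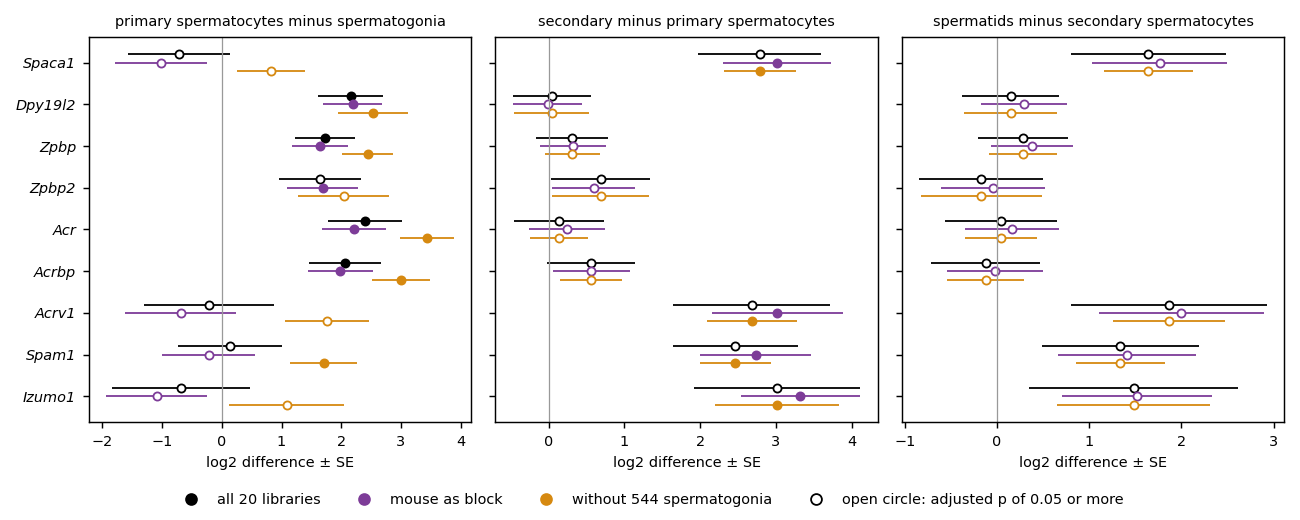
Log2 difference between successive sorted stages (later minus earlier, log2 of RPKM + 0.1, bars are 1 standard error) for the 9 genes, in 3 fits: all 20 libraries, the mouse as a block, and without the library labelled spermatogonia of mouse 544. Filled circles have an adjusted p below 0.05, and in the middle panel Spaca1, Acrv1, Spam1 and Izumo1 are filled in 2 of the 3 fits with differences from 2.46 to 3.32.

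None of the 9 genes was called between genotypes in any stage or in whole testis. In whole testis the KO minus WT differences ran from -0.95 (SE 1.64) for *Spam1* to 0.66 (SE 0.52) for *Zpbp* on the log2 scale, with limma adjusted p of 0.728 to 0.987, and 0% of 22763 genes were called. At an unadjusted p below 0.05 there were 2492 genes and none of the 9. In sorted cells 0% of 22715 genes were called in each of the 4 stages. At an unadjusted p below 0.05, spermatogonia had 1130 genes, primary spermatocytes 1754, secondary spermatocytes 716 and spermatids 173. Of the 9 genes, *Zpbp* in spermatogonia (2.35, SE 0.76, limma adjusted p = 0.947) and *Zpbp2* in primary spermatocytes (-2.30, SE 0.90, limma adjusted p = 0.562) were among them. The *Zpbp2* value rests in part on mouse 613, whose *Zpbp2* sum is not comparable with the others: without it the difference was -1.79 and none of the 9 genes had an unadjusted p below 0.05. The *Zpbp* value rests on the library of mouse 544. Without mouse 286, which leaves that library alone on the KO side, the difference was 3.79. Without mouse 544, which leaves mouse 286 alone there, it was 0.91. Tests of whether the genotype difference changed with stage called 0% of genes, with 514 genes and none of the 9 at an unadjusted p below 0.05. With standard errors of 0.70 to 1.60 on the log2 scale in spermatids, changes between genotypes of several fold would not have been detectable for most of these genes.

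Mice were then divided by *Prm1*, whose transcript appears in late round spermatids and whose protein packs the sperm head. The level of *Prm1* in the mouse's own whole testis, or in its spermatids where there was no whole testis library, fell far to either side of the division at 10 RPKM. Mice 178 and 351 (WT) and 214, 273 and 544 (KO) held 603, 1299, 1152, 1922 and 930 RPKM. Mouse 648 (WT) and mice 269, 286 and 308 (KO) held 0.68, 0.85, 1.16 and 0.44 RPKM. These levels rest on 17, 18, 22 and 10 reads, so a mouse without *Prm1* is one below the division and not one that lacks the transcript. Both genotypes occur on both sides, and mice 550, 613 and 614 had neither library and were left out. Because the mice were divided by a measured value, the comparisons that follow are descriptions without a test. The study's methods describe sorted males in general as sexually mature and name no mouse. Sorted mice fall on both sides (178, 351 and 544 with *Prm1*, 286 and 648 without it). The labels give no age, so age cannot be told apart from this division. For the 4 mice with a whole testis library alone (214 and 273 with *Prm1*, 269 and 308 without it), it is not known here whether even that general description applies.

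In whole testis, the late genes *Izumo1*, *Acrv1* and *Spam1* were lower in every mouse without *Prm1* than in any mouse with it, while *Spaca1* and the 5 early genes overlapped. *Izumo1* stood at 20.5, 40.4 and 34.7 RPKM in mice 178, 214 and 273 and at 1.89, 1.76, 2.33 and 0.80 RPKM in mice 648, 269, 286 and 308, a ratio of medians of 19.0. *Acrv1* stood at 22.2, 96.3 and 107 RPKM with *Prm1* and at 17.0, 4.43, 8.43 and 0.85 RPKM without it, a ratio of medians of 14.97. *Spam1* stood at 3.83, 12.3 and 12.4 RPKM against 2.74, 0.41, 1.30 and 0.04 RPKM, the last from about 4 reads. In these 3 genes the groups did not overlap, although mouse 178 came close to mouse 648 in *Acrv1* and *Spam1*.

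*Spaca1* stood at 35.1, 281 and 178 RPKM with *Prm1* and at 49.4, 12.6, 16.0 and 5.80 RPKM without it, so that mouse 178 fell below mouse 648. The early genes overlapped: *Acr* at 99.6 to 151 RPKM against 85.4 to 134 RPKM, *Acrbp* at 1538 to 2739 RPKM against 1122 to 1740 RPKM, *Dpy19l2* at 14.2 to 48.7 RPKM against 28.3 to 71.0 RPKM, *Zpbp* at 9.03 to 35.2 RPKM against 12.1 to 16.3 RPKM, and *Zpbp2* at 276 to 951 RPKM against 572 to 1773 RPKM. Thus 3 of 9 genes were higher with *Prm1* without overlap and 0 of 9 lower, beside 13.1% and 12.8% of 22762 genes. Without mouse 178, 6 of 9 were higher without overlap (*Acr*, *Spaca1* and *Zpbp* being the additional ones), beside 20.3% of genes. That library had the lowest sum of transcript reads per mapped read of all with a known depth (1.0, median 1.67), and the part of this in its levels was not tested. In bulk tissue, fewer cells of a type and less RNA per cell cannot be told apart.

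**Figure D3:**
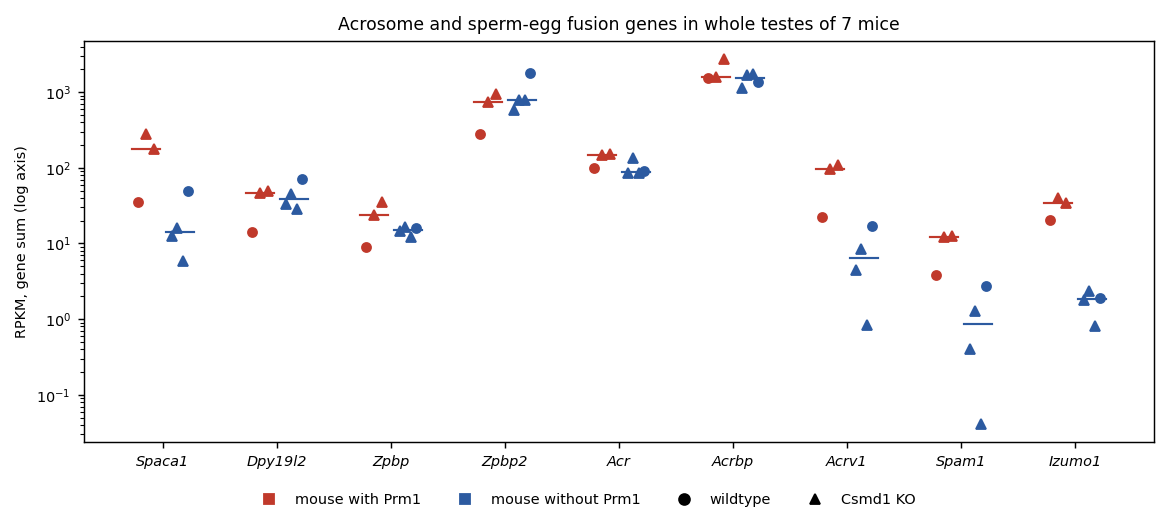
RPKM per gene (sum over transcripts, log axis) in whole testis of 7 mice, 3 with Prm1 and 4 without, with short lines at the medians and shape for genotype. Izumo1, Acrv1 and Spam1 separate the mice without overlap, whereas Spaca1, Acr, Acrbp, Zpbp, Zpbp2 and Dpy19l2 overlap.

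The makeup of the testes moved with this division. In whole testis the 8 late spermatid markers summed to 7351 to 14692 RPKM with *Prm1* and 13.5 to 194 RPKM without it. *Prm1* is 1 of the 8, so part of this separation follows from the division. *Prm2* alone stood at 2374 to 4427 RPKM with *Prm1* and at 0 to 1.83 RPKM without it. The 7 round spermatid markers summed to 364 to 977 RPKM against 239 to 446 RPKM, with between 2 and 6 of the 7 at 1 RPKM or more and *Cst13* at 0 in at least 1 library without *Prm1*. The 8 markers of primary spermatocytes summed to 290 to 752 RPKM with *Prm1* and 1039 to 2727 RPKM without it, and 7 Sertoli cell markers to 346 to 663 RPKM against 792 to 1967 RPKM. The 7 spermatogonial markers (60.7 to 78.6 RPKM against 83.2 to 425 RPKM) and 6 peritubular and stromal markers (9.29 to 14.9 RPKM against 21.0 to 105 RPKM) were also higher without *Prm1* and did not overlap, whereas Leydig cell and macrophage markers overlapped. Their part in the differences above was not tested.

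In sorted spermatids the division looked different. *Izumo1* was again lower without *Prm1*, at 77.3, 49.96 and 110 RPKM in mice 178, 351 and 544 against 9.11 and 17.0 RPKM in mice 648 and 286, a ratio of medians of 5.92. *Acrv1* was lower too, at 173, 91.0 and 154 RPKM against 47.9 and 86.2 RPKM, with the nearest pair close together. *Spaca1* (142 to 279 RPKM against 149 and 193 RPKM) and *Spam1* (16.9 to 23.1 RPKM against 9.59 and 19.6 RPKM) overlapped.

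*Dpy19l2*, *Zpbp2* and *Zpbp* of the early genes stood higher in the spermatids without *Prm1*. *Dpy19l2*, the anchor of the acrosome, stood at 66.2, 26.7 and 25.9 RPKM in mice 178, 351 and 544 and at 123 and 117 RPKM in mice 648 and 286, a ratio of medians without over with *Prm1* of 4.49. *Zpbp2* stood at 520, 493 and 426 RPKM against 2566 and 1853 RPKM, a ratio of 4.48. *Zpbp* stood at 26.2, 19.0 and 22.8 RPKM against 26.4 and 33.5 RPKM, which did not overlap only by a narrow margin. Thus 2 of 9 genes were higher with *Prm1* and 3 of 9 lower, beside 20.9% and 29.6% of 20645 genes. These counts are near the shares over all genes, and nothing about the 9 genes is read from them. The spermatid libraries without *Prm1* also held more of the 8 primary spermatocyte markers (735 and 1102 RPKM summed, against 102 to 240 RPKM). They held less of the late spermatid markers (749 and 767 RPKM against 9530 to 11293 RPKM), a sum that includes *Prm1*. *Prm2* alone stood at 2.01 and 2.82 RPKM against 1409 to 2209 RPKM. The round spermatid markers overlapped (667 and 769 RPKM against 727 to 1150 RPKM). Their sum also reached 133 to 441 RPKM in primary spermatocytes and 46.2 RPKM in the ovary, so this overlap does not show equal round spermatid content. The 7 Sertoli cell markers were higher without *Prm1* (71.1 and 315 RPKM against 29.4 to 61.9 RPKM, *Rhox5* at 0 in at least 1 library of each side) and the 6 Leydig cell markers lower (2.44 and 3.15 RPKM against 4.73 to 12.1 RPKM, *Cyp11a1* at 0 in at least 1 library without *Prm1*). Spermatogonial, macrophage and peritubular markers overlapped. Their part was not tested.

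Ratios between genes in 1 library do not depend on its scale. On full-length transcripts, *Dpy19l2* per *Acr* was higher in the mice without *Prm1* at every stage: spermatogonia stood at 0.953 and 1.21 against 0.192 and 0.305 (mouse 544 included), primary spermatocytes at 0.949 against 0.276 and 0.413, secondary spermatocytes at 0.580 and 0.951 against 0.230 and 0.319, spermatids at 0.837 and 1.02 against 0.147 to 0.495 and whole testis at 0.331 to 0.786 against 0.142 to 0.323. The sorted libraries without *Prm1* are those of mice 648 and 286 alone, and the whole testis of mouse 308 (0.331) stood only just above that of mouse 273 (0.323).

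*Zpbp2* per *Zpbp*, the paired zona-binding proteins, likewise did not overlap at any stage. The ratio was 15.5 and 8.93 in spermatids of mice 648 and 286 against 3.15 to 4.34 in the 3 mice with *Prm1*, and 6.70 to 17.9 against 4.70 to 5.43 in whole testis. In primary spermatocytes mouse 648 stood at 15.8 against 2.95 and 7.74 in mice 544 and 178. Mouse 648 stood above all other mice throughout, at 14.9 to 20.8. *Izumo1* per *Acrv1* was lower without *Prm1* in spermatids (0.190 and 0.197 against 0.446 to 0.718) but overlapped in whole testis (0.111 to 0.945 against 0.324 to 0.923). These ratios were chosen after their values were seen.

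**Figure D4:**
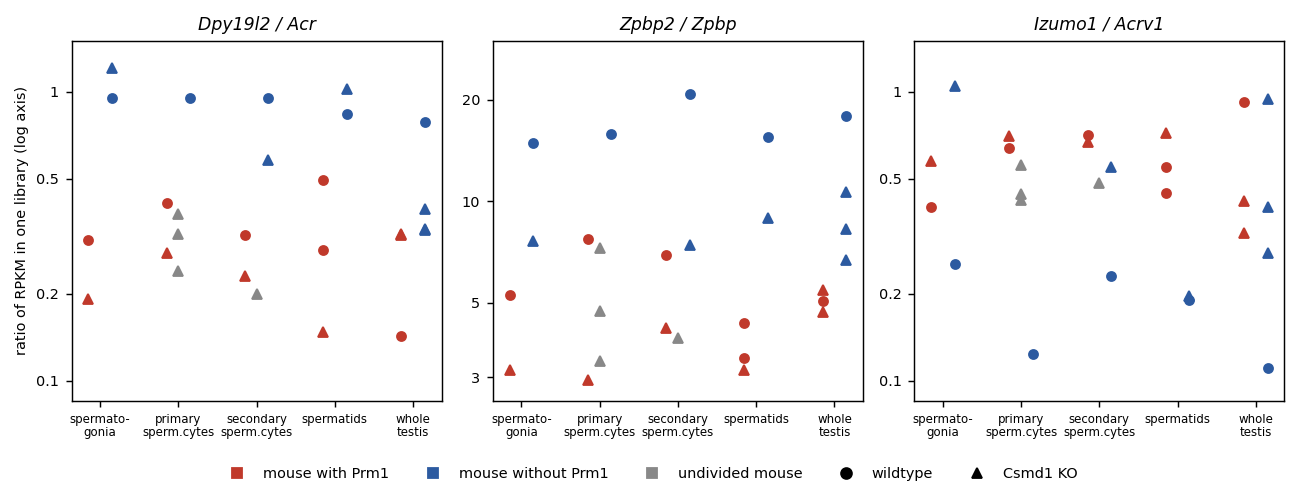
Ratio of 2 genes' RPKM on their full-length transcripts within 1 library (log axis) against stage, with colour for whether the mouse had Prm1 and shape for genotype. Dpy19l2 per Acr and Zpbp2 per Zpbp lie higher in the mice without Prm1 at each stage, whereas Izumo1 per Acrv1 separates them in spermatids and overlaps in whole testis.

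Over the 27 testis and germ cell libraries, log2 levels of the 4 late genes moved closely together and those of the early genes less so. Pearson's r was 0.97 for *Acrv1* with *Spam1*, 0.96 for *Acrv1* with *Spaca1*, 0.95 for *Acrv1* with *Izumo1*, and not below 0.88 for any pair of these 4. Among the early genes r ran from 0.54 (*Acr* with *Zpbp2*) to 0.93 (*Acr* with *Acrbp*), and several pairs of an early and a late gene lay above the lowest of these, up to 0.65 for *Zpbp* with *Acrv1*. The lowest values of all were between an early and a late gene, 0.09 for *Zpbp2* with *Izumo1* and 0.15 for *Dpy19l2* with *Izumo1*. The libraries share mice and stages, so these values describe the table and carry no p. They include mouse 613, whose sums of *Acrbp*, *Zpbp2* and *Spaca1* are not comparable with the others, and its part in the lower values was not tested. The early and late groups were named from stage levels in the same table, so the closeness among the late genes follows in part from the grouping. Outside the acrosome lists, the genes most like the mean of the 9 among 14583 with a mean of at least 1 RPKM were *1700028P14Rik* (r = 0.975), *1700034J05Rik* (0.974), *Ccdc116* (0.973), *4930562C15Rik* (0.972) and *Deup1* (0.972), and the same 5 led without the library labelled spermatogonia of mouse 544.

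A list of other acrosome and fusion genes had 44 members in the table, all tested. In primary spermatocytes against spermatogonia 8 of 44 were called higher and 1 lower, beside 7.54% and 19.1% of all genes, with a median log2 difference of 0.19 (-0.31 over all genes). Without the library labelled spermatogonia of mouse 544, 16 were called higher and 1 lower (11% and 18.9% of all genes), and with the mouse as a block 10 and 4 (11.6% and 24.1%). The 2 with the largest increase were *Adam2*, which encodes fertilin beta, at 2.50 (SE 0.48, limma adjusted p = 0.00184), and *Spink2*, an inhibitor of acrosomal proteases, at 2.20 (SE 0.52, limma adjusted p = 0.00572). *Dpy19l3*, a paralog of *Dpy19l2* that is a tryptophan mannosyltransferase, was lower by -2.62 (SE 0.50, limma adjusted p = 0.00174). From primary to secondary spermatocytes 1 was called higher, *Zan* (zonadhesin, 3.36, SE 0.71, limma adjusted p = 0.0227), and 1 lower, *Tex101*, a surface protein needed for maturation of ADAM3 (-2.63, SE 0.68, limma adjusted p = 0.0476). The median there was 2.30 (0.28 over all genes), and 22 of 44 were called higher and 3 lower with the mouse as a block (14.5% and 3.66% of all genes), and 20 higher and 1 lower without the library labelled spermatogonia of mouse 544 (6.99% and 0.445%). Between secondary spermatocytes and spermatids none of the 44 was called (median 1.11, -0.33 over all genes), while with the mouse as a block *Gopc* (-1.84, limma adjusted p = 0.00907) and *Tex101* (-1.93, limma adjusted p = 0.0411) were called lower, beside 7.18% of all genes. None was called between genotypes. By *Prm1*, 24 of 44 were higher without overlap in whole testis and 1 lower, beside 13.1% and 12.8% of all genes. In spermatids 24 were higher and 13 lower, beside 20.9% and 29.6%, so that the share of lower ones was close to that over all genes.

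The transcripts of *Acrbp* varied between mice. The short coding transcript of the 5′ exons (ENSMUST00000032481) and a noncoding transcript that extends an internal exon into the intron after it (ENSMUST00000112412) have no exon in common, so that their ratio is not affected by reads counted for both. The ratio lay between 2.17 and 4.58 in the 12 libraries of mice with *Prm1* and between 0.641 and 0.796 in all 5 libraries of mouse 648. In mouse 286 spermatogonia stood at 1.53, spermatids at 1.43, secondary spermatocytes at 2.34 and whole testis at 3.70, and the whole testes of mice 308 and 269 at 1.44 and 3.27. Mouse 648 thus stood apart from the others in each of its libraries, apart from the primary spermatocytes of mouse 613 (0.330), whose reads were counted differently. Exons of *Gm44597* also cover 579 of the 584 bases of the short coding transcript and 0 of the 741 of the noncoding one, so the ratio cannot be ascribed to *Acrbp* alone. *Gm44597* stood at 6.93 to 127 RPKM in the libraries of mouse 648 and, by comparison, at 12.01 to 140.0 RPKM in those of mouse 286. For *Zpbp2* and *Spaca1* each transcript kept a steady share of the sum, between 14.6% and 21.2% for the 6 of *Zpbp2* and between 26.2% and 38.3% for the 3 of *Spaca1*, outside mouse 613.

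In the ovary, which forms no acrosome, the 9 genes were at or near 0, from 0 RPKM for *Acrv1* to 2.26 RPKM for the sum of *Acrbp*.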

How the data were processed

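The deposited table holds RPKM values per transcript that the authors computed from polyA-selected paired reads aligned with TopHat2 to Ensembl release 72 gene models. Missing values were read as 0. Transcripts were summed per gene with GENCODE M21 on GRCm38 (90339 of 94480 matched). Genes with a mean of at least 0.1 RPKM, and the 9 genes in any case, were tested on log2(RPKM + 0.1) with limma 3.58.1 in R 4.3.3, 1 mean per genotype and stage, Benjamini-Hochberg adjustment over all genes and a threshold of 0.05. Differences on this scale understate changes of low genes. On simulated data 99.5% of 200 genes changed by 3 on the log2 scale were recovered between secondary spermatocytes and spermatids, with 8 false calls, at a simulated SD of 0.5. This does not describe genes of larger spread, such as the late genes. Same-numbered libraries come from 1 mouse (residuals over 14650 genes correlated at a median of 0.54 over 22 pairs, against -0.06 between mice), and the mouse was used as a block in an alternative. The genes, lists, markers and motifs, and the rule that named genes (all 9, *Prm1*, the 2 largest changes either way in the other list, the 5 most similar genes), were chosen with earlier results of these data known. Alternatives covered pseudocount, filter, quantile normalization, transcript choice, genotype, libraries quantified together and leaving out each mouse. No label says which libraries were quantified together. This was inferred from libraries that lack values for the same transcripts.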

Additional observations from a re-analysis of the deposited data

Results flagged for a closer look

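The ovary library, which enters no comparison, held reads of the full-length transcript of 8 of the 9 genes above the 3 reads that a count of 0 allows: 47 reads of *Zpbp*, 40 of *Dpy19l2*, 25 of *Acrbp*, 12 of *Spaca1*, 7 of *Acr*, 6 of *Izumo1*, 5 of *Zpbp2* and 4 of *Spam1*. All of these lie far under the testis levels, and there is 1 ovary library. Among 18 groups of 4 or 5 KO libraries examined for a sample far from the others (9 genes in primary spermatocytes and in whole testis), none was found.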

How the results depend on the processing

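Each comparison was repeated with other pseudocounts (0.01 and 1 RPKM), without a filter or with a mean of at least 1 RPKM, with quantile normalization and with the most abundant transcript per gene, and the count of called genes among the 9 stayed within 1.5 times in all of these. With the mouse as replicate block, 4 of 9 genes were called from primary to secondary spermatocytes in place of 0, as also without the library labelled spermatogonia of mouse 544 (4, an alternative chosen after seeing the data). In the libraries of mice 544 and 550, inferred to have been quantified together, 4 were called higher too, beside 4094 of 22092 genes called higher and 1400 lower. The block changed the count of no other comparison by over 1.5 times. The 4 higher calls from spermatogonia to primary spermatocytes became 0 in KO mice only and in the libraries of mice 648 and 614 alone. In the libraries of mice 544 and 550, and without mouse 286, the library of mouse 544 was the only one of KO spermatogonia. No calls are counted there. The library of mouse 544 turned directions in that step: in mice 544 and 550 the differences were -0.58 for *Acr*, -0.69 for *Acrbp*, -0.88 for *Zpbp* and -0.61 for *Zpbp2*, and in KO mice only -0.27 for *Zpbp2*. Leaving out each mouse in turn gave 0 to 6 called genes in the step to primary spermatocytes, 0 to 4 in the step to secondary spermatocytes and 0 in the step to spermatids. Between genotypes no count is given, since several of these fits left 1 library in a group. By *Prm1*, 3 to 6 genes did not overlap in whole testis. The 6 were found without mouse 178, beside 20.3% of all genes higher and 15.5% lower. The other counts have no such share beside them, and nothing is read from them. In spermatids, leaving out mouse 286 or 648 left 1 library without *Prm1*, so no count is given. The step to secondary spermatocytes had 4 calls without mouse 286 and 2 without mouse 544. It had 0 without mouse 178, 351, 550, 613, 614 or 648, and 0 in WT mice only and in KO mice only. A division by *Prm1* at 100 RPKM gave the same 2 groups of mice. Quantile normalization gave 4 genes without overlap in whole testis and 7 in spermatids. These counts have no share over all genes beside them, and nothing is read from them. Between genotypes in primary spermatocytes, no set of libraries taken as quantified together left residual degrees of freedom for a test. Groups of 2 to 5 mice limit all of these comparisons.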
